A study of Rattus norvegicus with 8 samples.

Results

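The nitric oxide and natriuretic peptide cGMP genes are 10 rat genes that make, sense or clear the signals that raise cyclic GMP (cGMP) in a cell. They were chosen by name, with 1 RefSeq transcript record for each, so that 10 of the 18314 records in the files were followed. All 10 records were found, and the reference table gave each the expected symbol. RNA was sequenced from the right stellate ganglion, the sympathetic ganglion that sends most of the sympathetic nerve supply to the heart, of 4 Wistar rats and 4 SHR. The SHR (spontaneously hypertensive rat) is an inbred line that develops high blood pressure without treatment, and its hypertension was established at this age according to the methods of the study. Wistar rats, an outbred stock, served as the normotensive control, and the related WKY line was not used. All 8 rats were male and 16 weeks old, no drug or surgical treatment is given for either strain, and each rat gave 1 library. The strains differ across the genome as well as in blood pressure, so the effect of strain background and that of hypertension cannot be told apart here.

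The estimated counts summed to between 25820299 and 35509074 per rat. The tissue label was checked on 9 markers of sympathetic neurons, such as *Th* and *Dbh*. Their summed level ran from 43513 to 49015 in Wistar and from 42887 to 50049 in SHR in TPM, a unit that corrects for transcript length and depth, and 0 of the 9 passed the threshold used below, an adjusted p under 0.05. Of the 9, 6 were fitted lower and 3 higher in SHR. Scaled for library size, the counts of *Dbh* were lower in every SHR than in every Wistar rat (log2 fold change -0.28, edgeR adjusted p = 0.324). In the lists for Schwann cells, endothelium, smooth muscle, fibroblasts, macrophages, adipocytes and striated muscle no record passed that threshold either, and in the list for satellite glia 1 of 11 tested records did, 1 of the records of *Apoe*. Of the Schwann cell records 12 of 13 were fitted lower in SHR, with a median log2 fold change of -0.31, and of the fibroblast records 6 of 7, with a median of -0.43, while the summed levels of the strains overlapped in both lists. Their part in the results for the cGMP genes was not tested. The summed level of the adipocyte list was 111 TPM in Wistar replicate 1 and 218 TPM in SHR replicate 1, against 15.4 to 43.0 TPM in the other 6 rats, and results were therefore also computed without both of these libraries. In whole ganglia a lower value can come from fewer cells of a type or from less RNA per cell, and these cannot be told apart.

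As background, cGMP is made by enzymes of 2 kinds. Nitric oxide, released by nitric oxide synthases, diffuses into a cell and activates soluble guanylyl cyclase, a dimer of an alpha and a beta subunit. Natriuretic peptides bind receptors at the cell surface whose inner part is itself a guanylyl cyclase, while the clearance receptor takes the peptides up and removes them. In sympathetic neurons that project to the heart, cGMP is known to restrain calcium entry and the release of noradrenaline.

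The gene called lower in SHR was *Gucy1a1*, an alpha subunit of soluble guanylyl cyclase, whose mean was 1.35-fold higher in Wistar. This call lay close to the threshold and held in 10 of 19 other settings of the analysis. *Npr3*, the clearance receptor for natriuretic peptides, was lower in every SHR than in every Wistar rat and showed the widest difference of the set, but from few reads and without passing the adjusted threshold. The remaining synthase, cyclase, peptide and receptor genes did not pass the test. Of the 10 genes, 9 had enough reads to be tested and 1 of the 9 (11.1%), *Gucy1a1*, had an adjusted p under 0.05 (quasi-likelihood test of edgeR, Benjamini-Hochberg adjustment). Over all 13659 tested records, 2.85% passed, 1.16% as higher and 1.69% as lower in SHR. A single call among 9 genes gives no basis to set the group apart from that background. The median log2 fold change of SHR over Wistar was 0.13 over the 9 genes and 0.0070 over all tested records, with 5 of the 9 fitted higher and 4 fitted lower in SHR. In 2 of the 9 genes, *Gucy1a1* and *Npr3*, the normalised counts of the strains did not overlap, against 10.6% of all tested records, or 5.96% with all SHR below all Wistar rats and 4.63% with all SHR above. A normalised count is the estimated count scaled to a common library size.

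**Figure D1:**
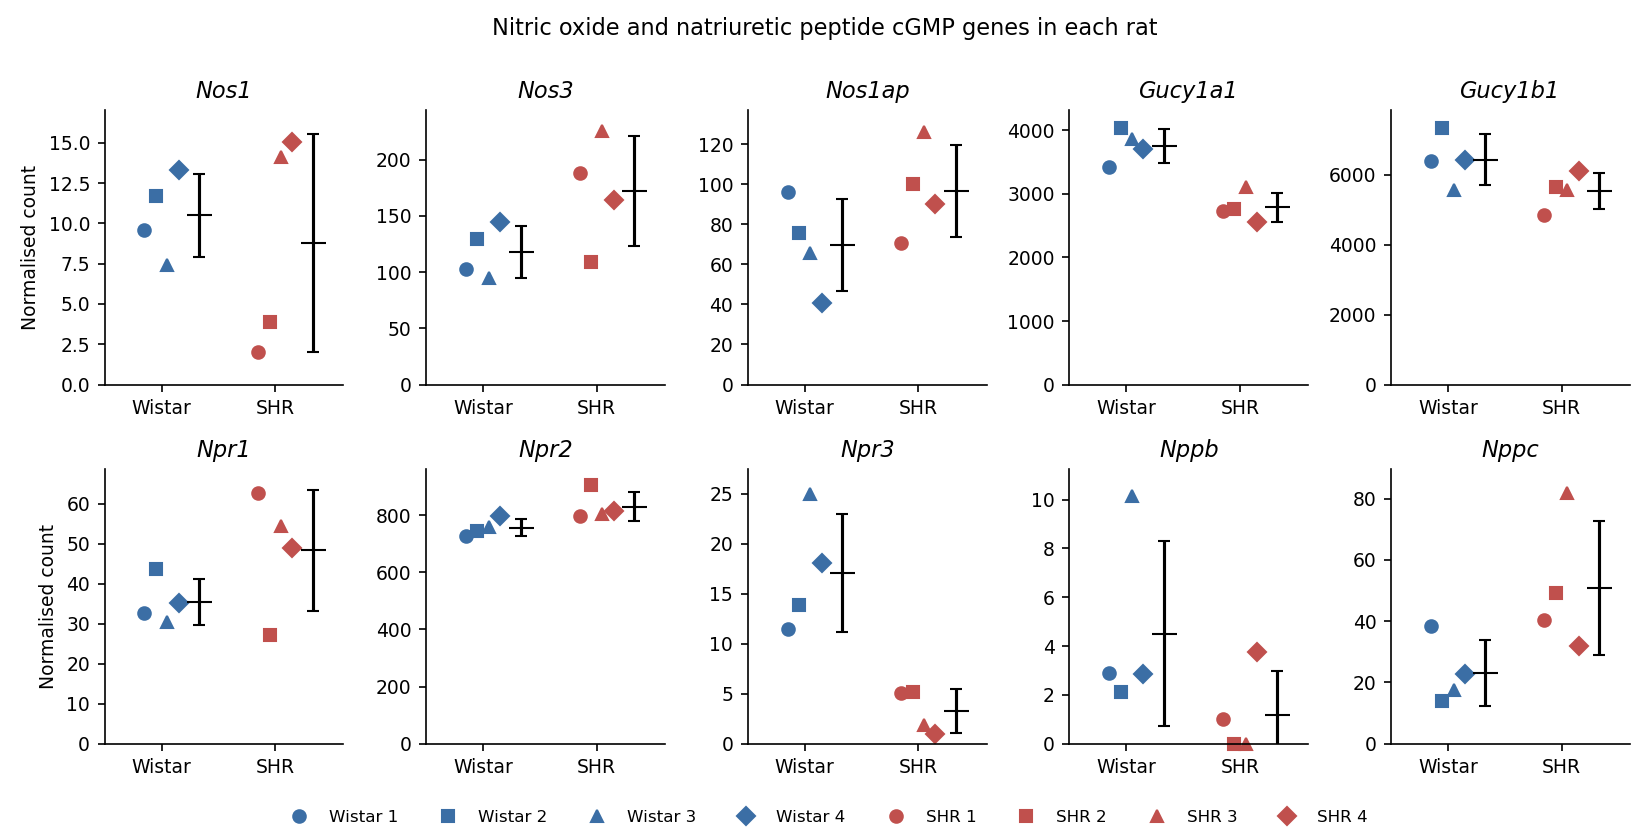
Normalised count (vertical axis, linear, from 0, with a scale of its own for each gene) of the 10 genes in each rat. Each symbol is 1 rat, with a shape for each replicate number, and the bar at the right of each strain gives the mean and SD of 4 rats (for *Nppb* in SHR the lower end of the SD falls below 0 and is not drawn). The SHR points lie below all Wistar points for *Gucy1a1* and *Npr3* and overlap them in the other 8 panels.

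Soluble guanylyl cyclase was by far the most abundant part of the set. *Gucy1a1* (record NM_017090, formerly *Gucy1a3*) had normalised counts of 3420, 4037, 3861 and 3704 in Wistar replicates 1 to 4 and of 2726, 2770, 3103 and 2555 in SHR replicates 1 to 4. The highest SHR lay below the lowest Wistar rat. The Wistar mean was 3756 ± 262 and the SHR mean 2788 ± 229 (SD, n = 4 rats each), a log2 fold change of -0.43 with a standard error of 0.093 and a 95% interval from -0.64 to -0.22. The edgeR adjusted p was 0.0387, close to the threshold. In DESeq2 with a length offset, where 5.86% of all tested records passed and 3.17% as lower in SHR, the adjusted p was 0.00491. Without the filter on low counts, where 2.09% of records passed, it was 0.0453 in edgeR. The call depended on the rats included. It held without Wistar replicate 1 (edgeR adjusted p = 0.0403), without SHR replicate 3 (0.0340) and without Wistar replicate 1 and SHR replicate 1 together (0.0288). The adjusted p in edgeR was 0.152, 0.139 and 0.125 without Wistar replicates 2, 3 and 4, and 0.0679, 0.0934 and 0.126 without SHR replicates 1, 2 and 4. The log2 fold change stayed between -0.48 and -0.38 in these 8 fits. On the TPM scale the strains overlapped, since SHR replicate 3, at 51.9 TPM, lay above Wistar replicate 1, at 48.5 TPM, and limma on log2(TPM + 1) gave a log2 fold change of -0.44 with an adjusted p of 0.111.

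The partner subunit *Gucy1b1* (NM_012769, formerly *Gucy1b3*), which carries the haem that binds nitric oxide, had normalised counts of 6408, 7351, 5565 and 6431 in Wistar and of 4841, 5664, 5567 and 6103 in SHR. Wistar replicate 3 lay among the SHR, and the other 3 Wistar rats lay above all of them. The log2 fold change was -0.22 with a standard error of 0.11 and a 95% interval from -0.45 to 0.022 (edgeR adjusted p = 0.343), so the interval holds both no difference and a decrease as large as the value fitted for *Gucy1a1*. Whether the 2 subunits differed from each other in their response was not tested. The ratio of *Gucy1a1* to *Gucy1b1* in TPM, which compares the subunits per length, was 0.580, 0.593, 0.749 and 0.621 in Wistar and 0.608, 0.531, 0.600 and 0.456 in SHR. The mean ratio was 0.636 ± 0.0774 in Wistar and 0.549 ± 0.0706 in SHR (SD, n = 4), and the strains overlapped. In all 8 rats *Gucy1a1* was the less abundant of the pair.

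*Gucy1a1* and *Gucy1b1* are neighbours on rat chromosome 2, on the minus strand, with 0 protein-coding genes listed between them. *Gucy1a1* was the gene called, and *Gucy1b1* is its partner. The 250 bases before the annotated start of each are therefore shown, read 5′ to 3′ on the strand of the gene. They come from RefSeq on the GRCr8 build. The authors used another build, rn6, so these positions belong to GRCr8 alone. Capitals mark matches to a GC box (GGGCGG or CCGCCC) or a CCAAT box (CCAAT or ATTGG), searched on both strands. The stretches lie at chr2:169779624-169779873 for *Gucy1a1* and chr2:169696988-169697237 for *Gucy1b1*.
Gucy1a1: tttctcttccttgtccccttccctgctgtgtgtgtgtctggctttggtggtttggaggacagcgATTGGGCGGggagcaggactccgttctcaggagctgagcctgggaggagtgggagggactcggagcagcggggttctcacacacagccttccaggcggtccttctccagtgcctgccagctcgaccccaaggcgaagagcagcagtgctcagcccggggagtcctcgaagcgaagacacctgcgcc
Gucy1b1: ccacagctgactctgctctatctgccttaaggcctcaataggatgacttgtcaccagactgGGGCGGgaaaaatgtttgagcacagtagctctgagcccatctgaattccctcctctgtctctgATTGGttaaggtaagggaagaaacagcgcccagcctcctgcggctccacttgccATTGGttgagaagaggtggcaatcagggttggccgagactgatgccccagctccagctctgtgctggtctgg
The *Gucy1a1* stretch held an inverted CCAAT box at base 65 that overlapped a GC box at base 68, counted from the first base printed. The *Gucy1b1* stretch held a GC box at base 62 and inverted CCAAT boxes at bases 125 and 179. A GC box was found in 34.9%, a CCAAT box in 37.7% and both in 12.7% of the 27457 rat promoters of the same table, whose windows run to 300 bases. A TATA box (TATAAA or TTTATA) and a CRE core (TGACG or CGTCA), which 14.3% and 22.0% of those promoters held, were also searched and matched neither gene. Promoters of 8 of the 10 genes were in that table (not *Nos1ap* and *Npr2*), and 4 of the 8 held both boxes. A match of letters describes the sequence and does not show that a factor binds there.

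The nitric oxide synthases were expressed at low levels. *Nos1* (NM_052799), the neuronal synthase, had estimated counts of 10, 11, 8 and 14 in Wistar and of 2, 3, 15 and 16 in SHR. SHR replicates 1 and 2 lay below all Wistar rats, and SHR replicates 3 and 4 lay above them. In normalised counts the means were 10.5 ± 2.57 in Wistar and 8.77 ± 6.76 in SHR (SD, n = 4), with a log2 fold change of -0.23 and a 95% interval from -1.61 to 1.15 (edgeR adjusted p = 0.886), and the fitted sign turned to 0.094 without SHR replicate 1 and to 0.048 without Wistar replicate 1 and SHR replicate 1. The 95% interval for counting error alone, on the ratio of SHR to Wistar, ran from 0.553 to 1.41, and the spread between the SHR exceeded that of the Wistar rats. SHR replicates 1 and 2 also stood apart from replicates 3 and 4 in the summed levels of some marker lists, in either direction. They were higher, the reverse of *Nos1*, for macrophages (132 and 124 against 30.1 and 46.2 TPM). The same held for smooth muscle (153 and 125 against 40.4 and 52.2 TPM) and fibroblasts (1587 and 969 against 527 and 774 TPM). It also held for adipocytes (218 and 23.7 against 15.4 and 21.0 TPM). They were lower, like *Nos1*, for Schwann cells (1684 and 1938 against 2228 and 2088 TPM). So they were for striated muscle (63.3 and 53.4 against 67.7 and 63.4 TPM). The remaining lists did not divide these pairs. Any part of these cell types in the spread of *Nos1* was not tested.

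*Nos3* (NM_021838), the endothelial synthase, had normalised counts of 103, 130, 95.2 and 144 in Wistar and of 188, 109, 226 and 164 in SHR. In 3 of 4 SHR the value lay above all Wistar rats, while SHR replicate 2 lay among them. The log2 fold change was 0.54 with a standard error of 0.25 and a 95% interval from -0.0086 to 1.10 (edgeR adjusted p = 0.303). The endothelial marker list, which holds such genes as *Pecam1* and *Cdh5*, summed to 47.6 to 77.2 TPM in Wistar and 37.1 to 72.8 TPM in SHR, with 0 of 8 records past the threshold. The estimated count of *Nos3* was not whole in any rat, within a tolerance of 0.001, as happens when reads are divided with other records, so its values are uncertain, whereas the counts of the other 9 genes were whole in all 8 rats. *Nos1ap* (NM_138922), which encodes an adaptor protein that binds the neuronal synthase, had normalised counts of 96.1, 75.6, 65.6 and 40.8 in Wistar and of 70.9, 99.9, 126 and 90.2 in SHR. The strains overlapped, with a log2 fold change of 0.48 and a 95% interval from -0.18 to 1.14 (edgeR adjusted p = 0.445).

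Among the natriuretic peptides, *Nppc* (NM_053750) encodes C-type natriuretic peptide, the ligand of *Npr2*. Its normalised counts were 38.4, 13.8, 17.6 and 22.8 in Wistar and 40.5, 49.3, 81.9 and 32.0 in SHR. Wistar replicate 1 lay between the SHR values and the other 3 Wistar rats lay below all SHR. The means were 23.2 ± 10.8 in Wistar and 50.9 ± 21.8 in SHR (SD, n = 4), with a log2 fold change of 1.13, a standard error of 0.43 and a 95% interval from 0.18 to 2.08. The interval is for this gene alone, and with adjustment over all tested records the difference did not pass (edgeR adjusted p = 0.223).

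*Nppb* (NM_031545), the precursor of B-type natriuretic peptide, a hormone best known from the heart, had estimated counts of 3, 2, 11 and 3 in Wistar and of 1, 0, 0 and 4 in SHR, too few to pass the filter on low counts. Most of its 19 Wistar counts came from replicate 3. Scaled for library size, the Wistar total was 3.59 times the SHR total, with a 95% interval from 1.30 to 12.3 that covers counting error only, and without the filter its edgeR adjusted p was 0.461. *Nppa*, the precursor of atrial natriuretic peptide and not among the 10 genes, was as scarce, with 9, 11, 5 and 2 counts in Wistar and 0, 2, 0 and 0 in SHR. It too was below the filter and was not tested.

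The receptors split into an abundant one and a pair of scarce ones. *Npr2* (NM_053838), the receptor cyclase for C-type natriuretic peptide, had normalised counts of 726, 743, 758 and 796 in Wistar and of 796, 906, 803 and 815 in SHR. The strains touched at Wistar replicate 4 and SHR replicate 1. With means of 756 ± 29.7 and 830 ± 51.2 (SD, n = 4), the log2 fold change was 0.13 with a 95% interval from -0.079 to 0.35 (edgeR adjusted p = 0.504). *Npr1* (NM_012613), the receptor cyclase for atrial and B-type natriuretic peptide, had normalised counts of 32.7, 43.7, 30.5 and 35.1 in Wistar and of 62.8, 27.2, 54.6 and 48.9 in SHR. In 3 of 4 SHR the value lay above all Wistar rats, and SHR replicate 2 was the lowest of the 8. The log2 fold change was 0.45 with a 95% interval from -0.26 to 1.16 (edgeR adjusted p = 0.501).

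*Npr3* (NM_012868), the clearance receptor, which lacks a cyclase domain, had estimated counts of 12, 13, 27 and 19 in Wistar and of 5, 4, 2 and 1 in SHR. In normalised counts these were 11.5, 13.8, 25.0 and 18.0 against 5.06, 5.19, 1.88 and 0.940, with every SHR below every Wistar rat. The mean was 17.1 ± 5.89 in Wistar and 3.27 ± 2.18 in SHR (SD, n = 4). The log2 fold change was -2.39 with a standard error of 0.59 and a 95% interval from -3.70 to -1.08 (edgeR adjusted p = 0.0666). Summed over rats, 71 counts in Wistar stood against 12 in SHR, a ratio of 5.59 after scaling, with an interval for counting error of 3.01 to 11.3. Other settings put the adjusted p on both sides of the threshold. It was 0.0496 in DESeq2 without and 0.0516 in DESeq2 with a length offset, 0.0366 in limma on log2(TPM + 0.1), and 0.0486 in edgeR without Wistar replicate 1 and SHR replicate 1. With single rats left out it ran from 0.0700 to 0.200 in edgeR. The ratio of *Npr3* to *Npr2* in TPM ran from 0.0409 to 0.0832 in Wistar and from 0.00303 to 0.0165 in SHR, without overlap, while the ratio of *Npr1* to *Npr2* was 0.0440 ± 0.00777 in Wistar and 0.0556 ± 0.0195 in SHR (SD, n = 4) and overlapped.

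**Figure D2:**
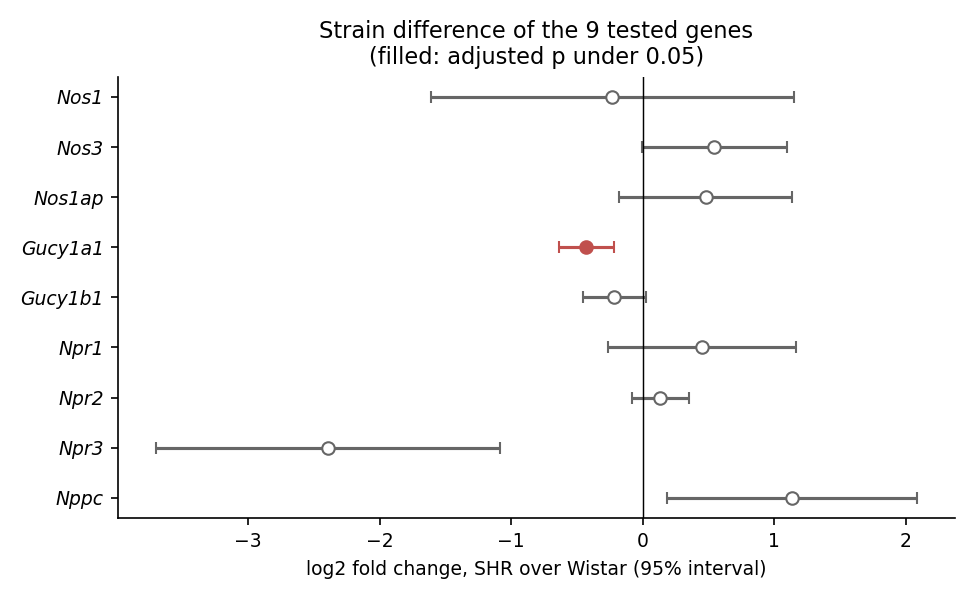
Log2 fold change of SHR over Wistar (horizontal axis) of the 9 tested genes in edgeR, with 95% intervals that are not adjusted for the number of records tested. The filled point, *Gucy1a1* at -0.43, is the gene with an adjusted p under 0.05, while the intervals of *Npr3* and *Nppc* also leave out 0 and those of the other 6 genes include it.

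Compared per length, as TPM over all 8 rats, the genes spanned about 3 orders of magnitude. *Gucy1b1* led with 83.4 ± 11.9 TPM, followed by *Gucy1a1* with 49.4 ± 9.99 TPM and *Npr2* with 8.49 ± 0.643 TPM (SD, n = 8), and none of these 3 ranges overlapped that of the next gene in the order. Below them came *Nppc* with 2.19 ± 1.43 TPM, *Nos3* with 1.29 ± 0.452 TPM and *Nos1ap* with 1.14 ± 0.387 TPM. These 3 neighbours did not separate, with *Nppc* above *Nos3* in 7 of 8 rats and *Nos3* above *Nos1ap* in 5. At the lower end *Npr1* had 0.423 ± 0.136 TPM, *Npr3* 0.281 ± 0.236 TPM, *Nppb* 0.246 ± 0.290 TPM and *Nos1* 0.0713 ± 0.0371 TPM. *Nos1ap* was above *Npr1* in all 8 rats although their ranges overlapped, and each of the last steps held in 6 of 8 rats. The order of the means at this end depended on the strain. In Wistar *Npr3*, with 0.472 ± 0.170 TPM, and *Nppb*, with 0.393 ± 0.341 TPM, stood above *Npr1*, with 0.357 ± 0.0653 TPM (SD, n = 4). The Wistar mean of *Nppb* rested on replicate 3, at 0.903 TPM. Wistar replicates 1, 2 and 4 had 0.233, 0.191 and 0.244 TPM, below every Wistar value of *Npr1* (0.312 to 0.451 TPM). *Npr3* lay above *Npr1* in Wistar replicates 3 and 4 and below it in replicates 1 and 2. In SHR *Npr1*, with 0.490 ± 0.164 TPM, stood above *Nppb*, with 0.0991 ± 0.148 TPM, and *Npr3*, with 0.0893 ± 0.0556 TPM (SD, n = 4). The sensors of nitric oxide thus stood far above the synthases in transcript level, and the *Npr2* receptor above both other receptors. Transcript level is not protein level or enzyme activity.

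**Figure D3:**
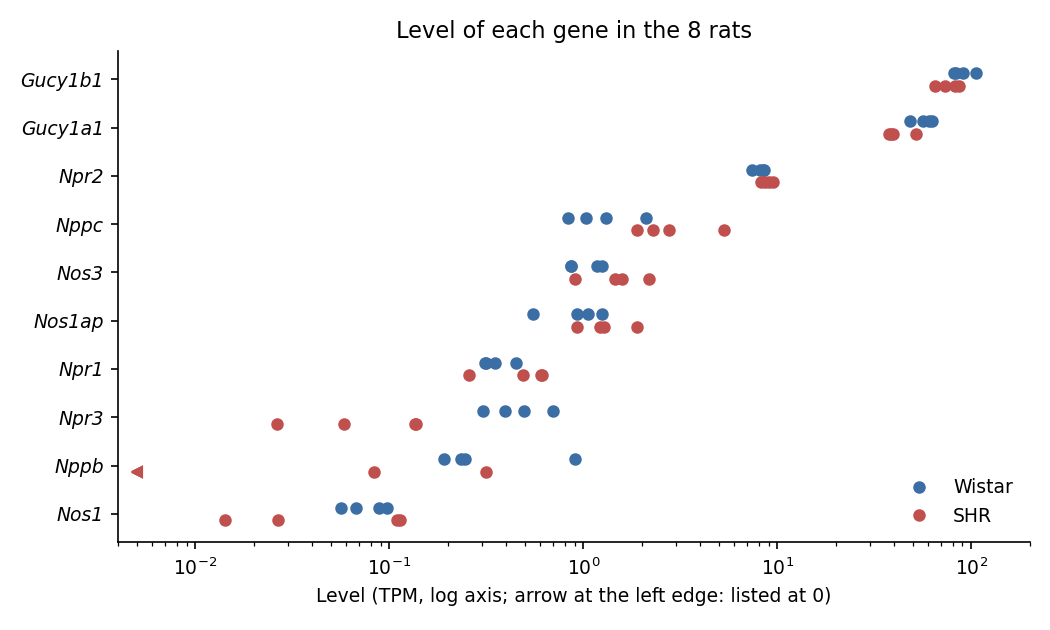
Level of each of the 10 genes in TPM (horizontal axis, log scale), with 1 point per rat, Wistar in the upper and SHR in the lower line of each gene, and genes in order of the mean over 8 rats. The arrow at the left edge marks *Nppb* in the 2 SHR where it is listed at 0. The points run from 105 TPM for *Gucy1b1* in Wistar replicate 2 down to 0.0141 TPM for *Nos1* in SHR replicate 1.

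The wider pathway was read from 6 lists with 68 further genes, of which 64 were found by name as 73 records and 58 records were tested. Of these 58, 3 passed the threshold (5.17%), beside 2.85% of all tested records. All 3 were lower in SHR, a direction in which 1.69% of all tested records were called. The lists were chosen with earlier results of these data known, so these 3 calls give no basis to set the pathway apart. The lists of nitric oxide synthase regulators (0 of 13 records), of arginine and tetrahydrobiopterin supply (0 of 9) and of other guanylyl cyclases and their activators (0 of 5) held no call. Their medians were -0.060, 0.18 and 0.15 on the log2 scale, against 0.0070 for all tested records. The lists of natriuretic peptide supply and clearance (1 of 5, median 0.19), of cGMP effectors and export (1 of 9, median 0.032) and of cGMP phosphodiesterases (1 of 17, median -0.055) held 1 call each. In 9 of the 58 records (15.5%) the strains did not overlap, 5 with all SHR below and 4 with all SHR above, against 10.6% of all tested records.

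The effector called was *Prkg2*, a cGMP-dependent protein kinase, with normalised counts of 902, 695, 446 and 793 in Wistar and of 200.5, 244, 296 and 257.5 in SHR. Every SHR lay below every Wistar rat. The means were 709 ± 195 and 249.6 ± 39.6 (SD, n = 4), with a log2 fold change of -1.51 and a standard error of 0.22 (edgeR adjusted p = 0.00499), and the call held in 18 of 19 other settings, the 8 fits without 1 rat among them, and was lost with the replicate number as a block (edgeR adjusted p = 0.0632). *Prkg1*, the other gene for this kind of kinase, had means of 20.8 ± 6.47 and 21.3 ± 6.77 (SD, n = 4) and an edgeR adjusted p of 0.9801. *Ide*, a protease that degrades insulin and also natriuretic peptides, had normalised counts of 542, 682, 750.5 and 696 in Wistar and of 486, 280.3, 364 and 320 in SHR, again without overlap. Its log2 fold change was -0.88 with a standard error of 0.18 (edgeR adjusted p = 0.0324). The call was lost in 6 of the 8 fits that left out 1 rat, with edgeR adjusted p of 0.109, 0.117 and 0.0913 without Wistar replicates 2, 3 and 4 and of 0.0845, 0.0815 and 0.120 without SHR replicates 2, 3 and 4.

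The phosphodiesterase called was 1 of 3 records of *Pde2a*, a phosphodiesterase that cGMP itself activates (NM_031079, log2 fold change -2.38, standard error 0.51, edgeR adjusted p = 0.0353). Of its other records, NM_001270604 was fitted higher in SHR, at 0.34 (edgeR adjusted p = 0.520). NM_001143847 was fitted lower, at -1.78 (edgeR adjusted p = 0.489). With the 3 records added up the normalised count was 1016 ± 83.3 in Wistar and 709 ± 106 in SHR (SD, n = 4). The sums did not overlap, at 908 to 1095 in Wistar and 554 to 792 in SHR. Their log2 fold change was -0.51 with an edgeR adjusted p of 0.0806, so the split of reads among the records enters the single call. That call was also lost without Wistar replicates 1, 2 and 3 (edgeR adjusted p = 0.0824, 0.109 and 0.0851) and without SHR replicates 1, 2 and 4 (0.0503, 0.1002 and 0.0740). *Nos2*, the inducible synthase, missed the filter on low counts, with 2, 1, 2 and 3 counts in Wistar and 7, 5, 14 and 2 in SHR.

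**Figure D4:**
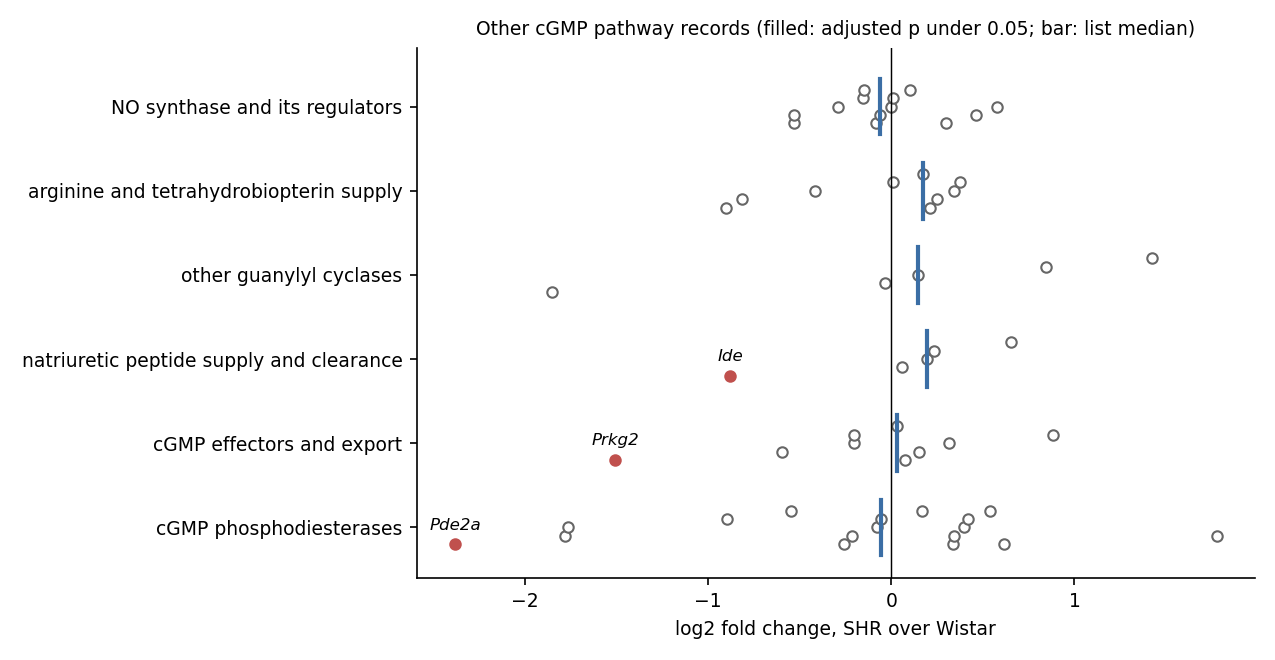
Log2 fold change of SHR over Wistar (horizontal axis) of the 58 tested records in the 6 pathway lists, with 1 point per record and a bar at the median of each list. The filled points are the 3 records with an adjusted p under 0.05, *Prkg2*, *Ide* and 1 record of *Pde2a*, all to the left of 0, and the medians lie between -0.060 and 0.19.

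The records whose pattern over the 8 rats was most like that of *Gucy1a1* were *Hspbap1*, *Gnai3* and *Mettl13*. Likeness was the mean absolute difference of log2 CPM after each record was centred on its own mean, and it was 0.046, 0.050 and 0.055 for these 3 genes against a median of 0.31 over all tested records. The 3 were chosen for the smallest difference. Values far below the median, and a decrease in SHR like that of *Gucy1a1*, therefore follow from the choice and are no further evidence. *Gnai3* encodes an alpha subunit of an inhibitory G protein. Its normalised counts were 2077, 2640, 2337 and 2156 in Wistar and 1697, 1710, 1862 and 1713 in SHR, without overlap, with a log2 fold change of -0.40 (edgeR adjusted p = 0.0677). None of the 3 passed the adjusted threshold with all 8 rats in edgeR. *Gnai3* passed it in edgeR without Wistar replicate 1 and SHR replicate 1 (adjusted p = 0.0431) and in DESeq2 without and with a length offset (0.0183 and 0.0198), and *Mettl13* in DESeq2 with a length offset (0.0497).

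**Figure D5:**
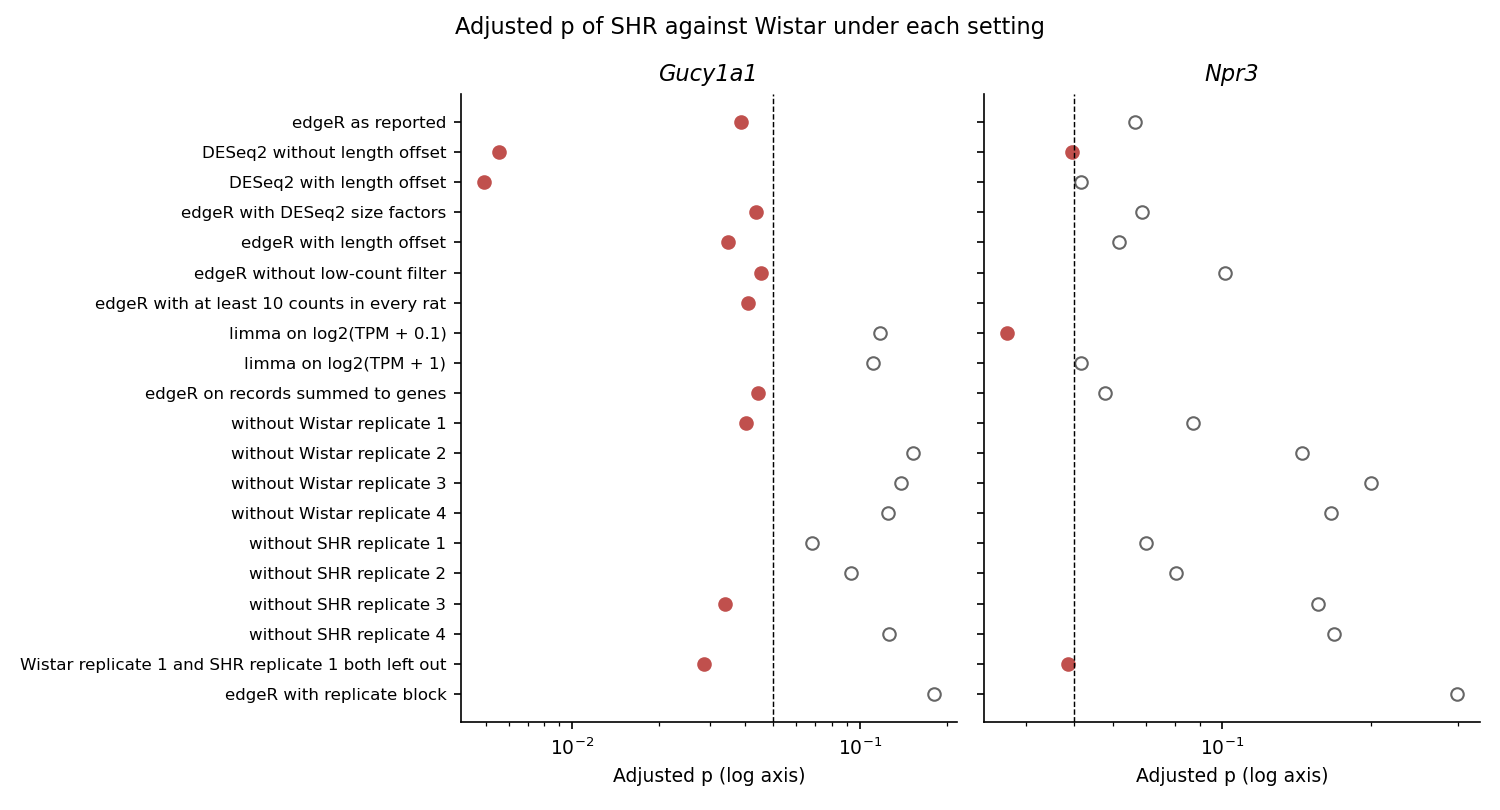
Adjusted p of SHR against Wistar (horizontal axis, log scale) for *Gucy1a1* and *Npr3* in the reported edgeR fit and in each other setting, with the dashed line at 0.05 and filled points below it. *Gucy1a1* lies below the line in 10 of 19 other settings and *Npr3* in 3 of 18, since *Npr3* is not tested when at least 10 counts are required in every rat.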

How the data were processed

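Right stellate ganglia of 4 Wistar rats and 4 SHR were sequenced, with 1 library per rat. The labels name a stranded mRNA library kit, whereas the methods of the study describe SMARTer amplification. Reads were mapped by the authors to rat RefSeq transcripts (rn6, per the labels) with Salmon 0.8.2, with correction for GC and positional bias. The deposited files give an estimated count, not normalised between rats, and a TPM for each of 18314 records.

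Estimated counts were rounded to whole numbers and tested with edgeR 4.0.16 (TMM, filterByExpr, glmQLFit and glmQLFTest) in R 4.3.3, with strain as the only term and Benjamini-Hochberg adjustment over 13659 records at 0.05. A normalised count is the estimated count divided by its TMM-scaled library size and multiplied by the mean such size, 32217816. Standard errors were taken as the size of the log2 fold change over the square root of its F statistic. TPM served only for levels, ratios, marker sums and limma. Counting intervals for summed counts are exact binomial ones computed with SciPy 1.17.1. These intervals cover counting error only. PCR duplicates were not marked by molecular identifiers and each read was treated as independent, so the intervals may be too narrow even for that error. Alternatives used DESeq2 1.42.0, limma 3.58.1, other filters and scalings, and fewer rats. The fits were tested on simulated counts.

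The 10 genes and the pathway and marker lists were chosen with earlier results of these data known. Named were all 10 genes, every pathway record past the threshold and the 3 records most like each called gene, while *Prkg1*, *Nppa* and *Nos2* were named after their values were seen. Gene names came from the RefSeq table (GRCr8), which matched 17352 of 18314 records by identifier. List genes were matched by current symbol only, because a match by older symbol gave a gene the record of another. Coordinates other than those of the promoters, and protein sequences, were not used here. Within each strain no 2 libraries agreed within sampling noise. The series design calls the samples biological replicates.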

Additional observations from a re-analysis of the deposited data

Results flagged for a closer look

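Of 20 groups of 4 rats (10 genes in each strain), 1 held a rat far from the others by Dixon's test at the 95% level, as many as the 1 that chance gives on average, since about 1 in 20 groups is picked out by chance. This was *Nppb* in Wistar replicate 3, with a normalised count of 10.2 from 11 estimated counts, against 2.13 to 2.88 in the other 3 Wistar rats.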

How the results depend on the processing

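The number of records past the threshold, 389 in edgeR (158 higher and 231 lower in SHR), was 780 in DESeq2 without and 799 with a length offset, 1068 (303 higher and 765 lower) without Wistar replicate 1 and SHR replicate 1, and 237 to 454 with single rats left out. Of the 10 genes, 2 passed in DESeq2 without a length offset and without Wistar replicate 1 and SHR replicate 1, 0 passed in limma on log2(TPM + 1), and 0 to 1 passed with single rats left out. The 1 that passed in limma on log2(TPM + 0.1) was *Npr3* and not *Gucy1a1*. Of the pathway records, 5 passed in either form of DESeq2 and without Wistar replicate 1 and SHR replicate 1, and 1 to 3 with single rats left out. *Gucy1a1* missed the threshold in limma at -0.44 with either pseudocount (adjusted p = 0.118 and 0.111) and in 6 of 8 fits without 1 rat, with values from -0.48 to -0.38. *Npr3* passed it in DESeq2 without a length offset at -2.42, in limma on log2(TPM + 0.1) at -1.60 and without Wistar replicate 1 and SHR replicate 1 at -2.87, and limma on log2(TPM + 1) gave -0.43, since a pseudocount above the level of a gene shrinks its fold change. *Nos1* reversed to 0.094 without SHR replicate 1 (range -0.60 to 0.094) and to 0.048 without Wistar replicate 1 and SHR replicate 1. The cause was not tested. *Nos3*, *Nos1ap*, *Gucy1b1*, *Npr1*, *Npr2* and *Nppc* kept their direction and stayed above the threshold in all 19 settings.

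The replicate numbers gave no sign of pairing, since the correlation of same-numbered rats ran from -0.29 to -0.038. With the replicate number as a block edgeR called 132 records, 0 of the 10 genes and 1 pathway record, that of *Pde2a* (adjusted p = 0.0260), while *Prkg2* and *Ide* missed the threshold (0.0632 and 0.164), and *Gucy1a1* stood at -0.43 with an adjusted p of 0.181.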
